A study of Homo sapiens with 16 samples.

Results

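The 38 genes described here encode the machinery of glycolysis (24 genes) and a panel of well known hypoxia-induced products (14 genes). They were chosen by name from a list of glucose transporters, glycolytic enzymes, lactate handling genes and classical targets of the hypoxia response. The choice was made with earlier results of these data known. The names were matched to the symbols in the deposited count table. They are 38 of the 78894 genes with an entry, and all 38 were among the 16790 genes that passed the filter on low counts and were tested. Most members were well expressed, 33 of them at a mean of at least 10 CPM, but not every glycolysis or hypoxia gene was. CA9, EGLN3 and the transporter SLC2A3 stayed below 2 CPM in every well (CPM is a gene's count scaled to a common library size with TMM factors).

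The cells were MCF10DCIS.com, a human breast line of the MCF10A series that forms lesions resembling ductal carcinoma in situ. All 4 groups derive from 1 clone in which PCSK5, a proprotein convertase gene, was knocked out with Cas9 and a guide to exon 4. Into that clone 1 V5-tagged, tetracycline-regulated allele was put back per line, and each line is a polyclonal hygromycin-resistant pool. The WT group carried the wildtype allele, the M452I group the M452I allele and the T288P group the T288P allele. The T288P+GDF11 group was the T288P line grown with 250 ng/ml recombinant mature GDF11, a TGF-beta family ligand, for the whole culture. All groups were grown in 3 dimensions on matrigel with EGF, were given doxycycline at 1 µg/ml starting on day 4, and ended on day 8 with 4 wells per group. Each allele rests on a single line, the endogenous gene is absent in all of them, and the labels name no origin for the replicates beyond the well, so p-values measure only the spread between these wells.

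Glycolysis converts glucose to pyruvate in the cytosol. Glucose enters through GLUT transporters, is trapped by hexokinases, is split into triose phosphates, and leaves as pyruvate, much of which proliferating epithelial and tumour cells reduce to lactate and export. When oxygen is low, prolyl hydroxylases no longer mark the HIF alpha subunits for destruction. HIF then pairs with ARNT and binds short DNA elements near most genes of this set, so that uptake, glycolysis, acid handling, angiogenic signals and mitophagy are classically induced together.

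Library totals ranged from 28.5 to 50.8 M counts. The 38 genes held 1.40% to 1.67% of all counts, and the group means were 1.53% (WT), 1.54% (M452I), 1.54% (T288P) and 1.48% (T288P+GDF11). These are shares of raw counts, whereas CPM values also carry the TMM factors. Those were 0.940 to 1.00 (WT), 0.887 to 1.12 (M452I), 0.910 to 1.04 (T288P) and 1.08 to 1.13 (T288P+GDF11). GAPDH, for example, averaged 0.370% of raw counts in T288P and 0.384% with GDF11. The part of scaling in small changes was not tested. PCSK5 itself, the gene put back, averaged 45.4 CPM (WT), 39.5 CPM (M452I), 37.7 CPM (T288P) and 40.8 CPM (T288P+GDF11), with overlapping wells between 25.3 and 66.8 CPM. These counts add the allele put back and any transcript of the edited gene, so they do not check the knockout. On the first principal component of log2 CPM over the tested genes (41.1% of the variance), 2 libraries did not sit with their group. The score of M452I replicate 4 was 23.3, that of its 3 companions between -27.0 and -21.8. T288P replicate 1 had -26.7 and its 3 companions had -0.79 to 5.67, while the GDF11-treated wells had 27.8 to 41.6. Ribosomal protein genes took 9.29% of the counts of M452I replicate 4 against 12.7% to 13.0% in the other 3 wells, and 12.3% in T288P replicate 1 against 10.7% to 11.1%. Counts of called members are given with and without both libraries. In bulk RNA, fewer cells of a type and less RNA per cell cannot be told apart.

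Per kb of exon, GAPDH was the most abundant member at 1715 CPM per kb over the 16 wells, followed by LDHA (581), LDHB (526), ENO1 (457), ALDOA (369) and PKM (332). The most abundant hypoxia genes on this scale were NDRG1, a stress-responsive protein of differentiated epithelium (307 CPM per kb), and P4HA1, the catalytic subunit of collagen prolyl 4-hydroxylase (239). At the other end stood CA9 (0.202 CPM per kb), EGLN3 (0.131) and SLC2A3 (0.0956). At several steps 1 gene of a pair gave nearly all of the transcript, as did SLC2A1 over SLC2A3, ALDOA over ALDOC, ENO1 over ENO2 and CA12 over CA9. ALDOA shares 68.0% of its annotated exon bases with another gene on the same strand and GAPDH 19.0% with one on the opposite strand, so their levels are uncertain to that extent, and 16 members have annotated pseudogenes, which held at most 12.8% (SLC2A3) and otherwise 1.63% (TPI1) or less of the member's own counts.

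The short element that HIF recognises has the core ACGTG or GCGTG. RefSeq promoters (GRCh38.p14) were at hand for 32 of the 38 members, and the 250 bases before the start held this core on either strand (CACGT or CACGC when read on the gene's own strand) in 20 of the 32 (62.5%). Of 11172 promoters of tested genes 56.7% held it, and of all 27305 promoters 43.1%. Among the members the share was 12 of 22 for glycolysis (54.5%) and 8 of 10 for hypoxia (80.0%). The core overlaps the E-box CACGTG, which counts as a match on both strands and occurred in 5 member promoters (15.6%) and in 8.75% of the promoters of tested genes. The following stretches show where the core lies, with the matched bases in capitals, in members whose level differed with GDF11 (HK2 to CA12) and in a pair of members whose level did not pass the test (PGK1 and LDHA); each reads 5′ to 3′ on the gene's strand.
HK2, chr2:74833888-74833912 on the plus strand: ccacggaccaCACGTcccatctcag
HK2, chr2:74834063-74834092 on the plus strand: agccaatggGCGTGcgCACGTcactgatcc
GPI, chr19:34364820-34364844 on the plus strand: actgcctgtaACGTGgaaggtgttc
ALDOC, chr17:28577120-28577145 on the minus strand: aagtgcccggCACGTGgtaaagggat
ENO2, chr12:6914452-6914476 on the plus strand: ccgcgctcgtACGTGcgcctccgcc
P4HA1, chr10:73096938-73096962 on the minus strand: tgatcgagctCACGTagcgagggct
KDM3A, chr2:86441335-86441359 on the plus strand: gggaggctgtGCGTGtcttgtgaga
CA12, chr15:63382066-63382090 on the minus strand: ggatctcaccCACGCctgccagcag
PGK1, chrX:78104029-78104058 on the plus strand: ggttcgcgGCGTGccggACGTGacaaacgg
LDHA, chr11:18394466-18394491 on the plus strand: gcccgactcaCACGTGggttcccgca
By GENCODE 29, all 250 bases of the GPI, ALDOC, ENO2 and CA12 windows lie in annotated exons of the gene itself, and those of the HK2 window in exons of HK2 or of AC019069.1. The first HK2 stretch lies before the GENCODE start of HK2 and the second after it. The P4HA1, KDM3A, PGK1 and LDHA stretches also lie after the GENCODE starts of their genes. Exons of the gene itself cover 108 bases of the P4HA1 window, 175 of LDHA, 223 of KDM3A and 74 of PGK1. HK2 had 3 matches, ALDOC 5, and GPI, ENO2, P4HA1, KDM3A and CA12 had 1 each, while SLC2A1 and HK1 had 0 in this window. PGK1 had 3 and LDHA 5. Only the first RefSeq entry of each symbol was used, so any other start of a gene was not searched. A match is only a run of letters in this window and says nothing about binding in these cells. VEGFA, NDRG1, SLC2A3, BNIP3L, HILPDA and SLC16A1 had no promoter entry.

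With GDF11 added to the T288P line, the genes at the entry into glycolysis, SLC2A1, HK1 and HK2, fell by 1.46-fold to 1.71-fold. The minor isozymes ENO2 and ALDOC fell too, and CA12 rose. The abundant genes LDHA, GAPDH and LDHB had log2 changes of 0.02, -0.09 and -0.09 and did not pass the test (edgeR adjusted p = 0.922, 0.719 and 0.651). Of the 38 members, edgeR called 10 in T288P+GDF11 against T288P (26.3%), 9 lower and 1 higher, where 12.9% of all tested genes were called, 7.88% lower and 5.07% higher. A mean of at least 10 CPM was reached by 33 members and by 8080 of the 16790 genes tested. The share called among all genes at that level was not determined. The median log2 fold change was -0.248 over the members and -0.0148 over all genes tested, and 30 of 38 values were below 0. Of the members 21 had an unadjusted p under 0.05, beside 28.3% of all genes. The wells of both groups did not overlap for 15 members (13 lower, 2 higher), against 22.0% of all genes (11.8% lower). Within the set, 7 of 24 glycolysis genes fell and none rose, and among the 14 hypoxia genes 2 fell and 1 rose.

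**Figure D1:**
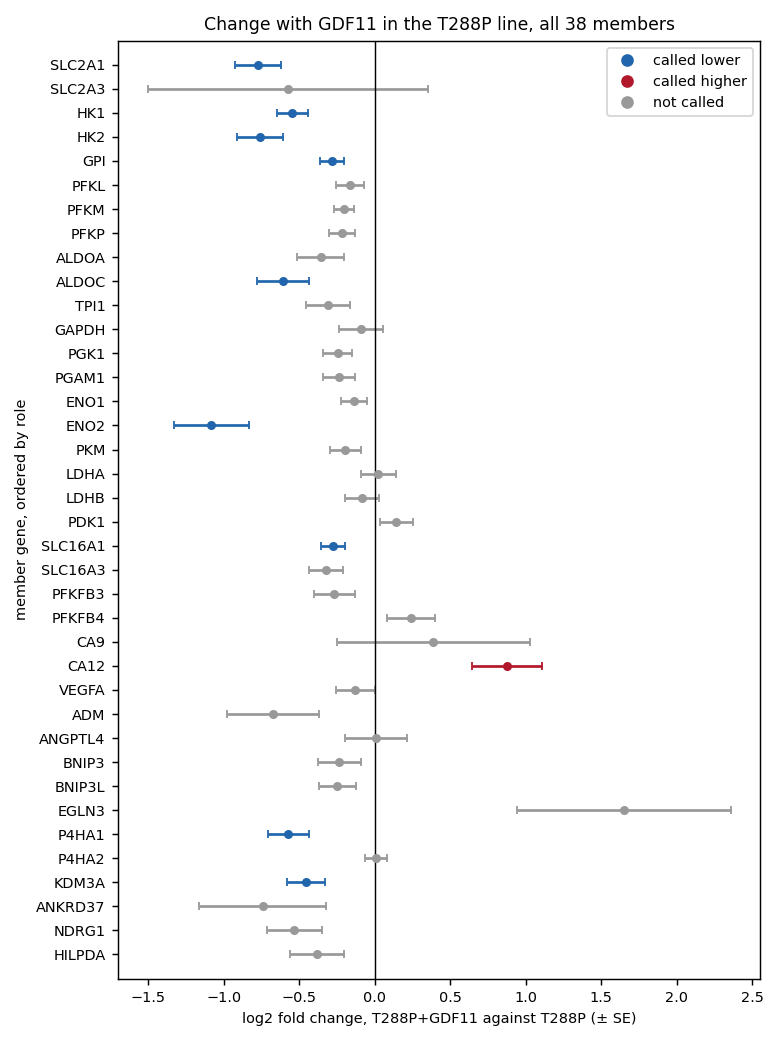
Log2 fold change (x axis, ± SE) of each of the 38 members (y axis, ordered by role) in T288P+GDF11 against T288P, coloured by the edgeR call. The 9 blue points below 0 include SLC2A1, HK1, HK2 and ENO2, CA12 is the only red point, and the low-count genes SLC2A3, CA9 and EGLN3 have the longest error bars.

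SLC2A1 encodes GLUT1, the main glucose transporter of epithelial cells (coordinates here and below are those of GENCODE 29 on GRCh38; ENSG00000117394; chromosome 1, 42925375 to 42959176). It measured 80.2, 96.6, 94.9 and 113 CPM in replicates 1 to 4 of T288P+GDF11 and 194, 128, 196 and 142 CPM in those of T288P. All 4 treated wells lay below all 4 untreated wells, and also below the WT wells (205, 186, 193 and 168 CPM) and the M452I wells (164, 199.8, 169 and 122 CPM). The mean was 1.71-fold lower with GDF11 (log2 change -0.78, SE 0.15, adjusted p = 0.00329 by edgeR). SLC2A3, which encodes the high-affinity transporter GLUT3, was barely detected, at 0.0588 to 0.521 CPM with GDF11 and 0.164 to 0.766 CPM without.

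HK1 and HK2 encode the hexokinases that phosphorylate glucose, HK1 the constitutive and HK2 the inducible form. HK1 (ENSG00000156515; chromosome 10, 69269984 to 69401884) measured 303, 289, 303 and 307 CPM with GDF11 and 509, 411, 436 and 401 CPM in T288P. The treated wells were tightly grouped and did not overlap the untreated ones. HK1 fell 1.46-fold (log2 change -0.55, SE 0.10, adjusted p = 0.0023 by edgeR). HK2 (ENSG00000159399; chromosome 2, 74833981 to 74893359) measured 129, 127, 129.7 and 157 CPM with GDF11 and 284, 175, 263 and 199.7 CPM in T288P, again without overlap, although T288P replicates 2 and 4 lay closer to the treated wells than replicates 1 and 3 did. It fell 1.70-fold (log2 change -0.76, SE 0.15, adjusted p = 0.00357 by edgeR). In WT, HK1 stood at 525, 544, 495 and 536 CPM and HK2 at 348, 287, 324 and 284 CPM, and in M452I at 512, 518, 492 and 375 CPM and 259, 309, 236 and 191 CPM. Both genes were therefore lowest with GDF11 among the 4 groups.

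The upper part of the pathway, from glucose 6-phosphate to the triose phosphates, had estimates below 0 for all 7 members, and 2 of them passed the test. GPI, the isomerase that makes fructose 6-phosphate (ENSG00000105220; chromosome 19, 34359480 to 34402413), measured 227, 245, 257 and 248 CPM with GDF11 and 323, 281, 298 and 287 CPM in T288P. The groups did not overlap, and GPI fell 1.22-fold (log2 change -0.28, SE 0.08, adjusted p = 0.0297 by edgeR). Its WT wells stood at 295, 289, 281 and 298 CPM and its M452I wells at 313, 314, 310.3 and 254 CPM, the last of them the outlying replicate 4. ALDOC, the brain-type aldolase (ENSG00000109107; chromosome 17, 28573115 to 28577264), measured 22.0, 28.9, 26.5 and 23.8 CPM with GDF11 against 46.7, 36.2, 35.04 and 36.6 CPM in T288P, and fell 1.53-fold (log2 change -0.61, SE 0.17, adjusted p = 0.0257 by edgeR). The highest of its T288P wells was the outlying replicate 1, and the others still lay above all treated wells. In WT it stood at 37.2, 41.1, 35.4 and 40.9 CPM, and in M452I at 51.0, 53.7, 50.2 and 25.7 CPM. ALDOA, the major aldolase, measured 539, 841, 759 and 736 CPM with GDF11 and 1074, 811, 961 and 847 CPM in T288P. These wells overlapped, since treated replicate 2 exceeded T288P replicate 2, and ALDOA did not pass the test (log2 change -0.36, SE 0.15, adjusted p = 0.128 by edgeR). The WT wells of ALDOA were at 921, 903, 867 and 983 CPM and the M452I wells at 1021, 1144, 1125 and 676 CPM. The phosphofructokinase subunits, which catalyse the committed step, had log2 changes of -0.16 for PFKL, -0.20 for PFKM and -0.22 for PFKP (edgeR adjusted p = 0.268, 0.0542 and 0.095), and that of TPI1, triose phosphate isomerase, was -0.31 (edgeR adjusted p = 0.162). PFKM (66.3 to 72.9 CPM with GDF11, 75.2 to 84.5 without) and PFKP (328 to 362 and 367 to 461) had wells that did not overlap between the groups, whereas PFKL (39.2 to 47.8 and 44.7 to 51.3) and TPI1 (235 to 305 and 279.8 to 396) overlapped. DESeq2 and limma-voom called PFKM, and edgeR did not.

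In the lower part, from glyceraldehyde 3-phosphate to pyruvate, 1 of 6 members passed. ENO2, the neuronal-type enolase (ENSG00000111674; chromosome 12, 6913745 to 6923698), measured 5.18, 5.10, 5.93 and 6.97 CPM with GDF11 and 16.03, 8.08, 14.5 and 10.5 CPM in T288P. It fell 2.12-fold, the largest called fall in the set (log2 change -1.08, SE 0.25, adjusted p = 0.00806 by edgeR). The groups did not overlap, and the T288P wells spanned the whole range of the WT wells, which measured 13.6, 11.0, 10.3 and 11.3 CPM. M452I measured 14.6, 17.4, 14.6 and 6.64 CPM, of which replicate 4 lay inside the treated range. ENO1, the ubiquitous enolase, measured 1012, 1103, 1006 and 949 CPM with GDF11 and 1196, 1059, 1130.4 and 1098 CPM in T288P, in overlapping wells (log2 change -0.14, SE 0.08, adjusted p = 0.296 by edgeR). It stood at 1067, 1034, 1104 and 1168 CPM in WT and 1205, 1179, 1216 and 1033 CPM in M452I. PGK1, phosphoglycerate kinase, the first ATP-yielding enzyme, measured 340.1, 387, 367 and 349 CPM with GDF11 and 459, 392, 459.9 and 403 CPM in T288P. The wells did not overlap, yet the test was missed (log2 change -0.25, SE 0.10, adjusted p = 0.0924 by edgeR). PGK1 was at 438, 395, 409 and 426 CPM in WT and 482, 486, 474 and 368 CPM in M452I. GAPDH, often used as a reference gene, ranged over 3295 to 3799 CPM with GDF11 and 3429 to 4572 CPM in T288P (log2 change -0.09, SE 0.15, adjusted p = 0.719 by edgeR). Its sign turned, to 0.0321, without T288P replicate 1. PGAM1, the mutase, and PKM, pyruvate kinase, had log2 changes of -0.24 and -0.20 (edgeR adjusted p = 0.153 and 0.23). The PGAM1 wells lay apart, at 216 to 239 CPM with GDF11 and 242 to 301 CPM in T288P, and those of PKM overlapped at 921 to 1015 and 958 to 1308 CPM.

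Of the genes for pyruvate and lactate, the importer and exporter SLC16A1 (MCT1) was the only one of 5 called. It measured 228, 233, 216 and 232 CPM with GDF11 and 272, 281, 296 and 253 CPM in T288P (ENSG00000155380; chromosome 1, 112911847 to 112957013). The groups did not overlap, and SLC16A1 fell 1.21-fold (log2 change -0.28, SE 0.08, adjusted p = 0.0257 by edgeR). WT stood at 307, 254, 272 and 262 CPM and M452I at 269, 266, 246 and 264 CPM. SLC16A3 (MCT4), the lactate exporter of glycolytic cells, measured 128, 179, 142 and 137 CPM with GDF11 and 213, 161, 179 and 181 CPM in T288P, with treated replicate 2 inside the untreated range (log2 change -0.33, SE 0.11, adjusted p = 0.0611 by edgeR). DESeq2 called SLC16A3, and so did edgeR without that well. SLC16A3 was at 203, 188, 197 and 186 CPM in WT and 178, 184, 204 and 151 CPM in M452I. LDHA, the lactate dehydrogenase subunit that favours lactate formation, measured 1615, 1742, 1768 and 1804 CPM with GDF11 and 1777, 1431, 2025 and 1589 CPM in T288P. The treated wells sat within the untreated range and the estimate was near 0 (log2 change 0.02, SE 0.11, adjusted p = 0.922 by edgeR), and its sign turned without T288P replicate 2. LDHA was at 1777, 1522, 1781 and 1612 CPM in WT and 1811, 2057, 1807 and 1495 CPM in M452I. LDHB, the subunit more common in oxidative tissue, and PDK1, the kinase that holds pyruvate dehydrogenase inactive, had log2 changes of -0.09 and 0.14 (edgeR adjusted p = 0.651 and 0.432). LDHB spanned 735 to 890.0 CPM with GDF11 and 789.9 to 933 CPM in T288P, and PDK1 26.9 to 34.0 and 26.8 to 33.5 CPM, both overlapping.

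PFKFB3 and PFKFB4 make and degrade fructose 2,6-bisphosphate, the activator of phosphofructokinase. PFKFB3 measured 33.2, 36.1, 36.7 and 34.6 CPM with GDF11 and 45.4, 34.3, 53.1 and 36.7 CPM in T288P, where replicates 2 and 4 lay in or near the treated range (log2 change -0.27, SE 0.14, adjusted p = 0.207 by edgeR). PFKFB4 measured 9.03, 9.06, 8.71 and 6.94 CPM with GDF11 and 7.49, 6.11, 9.12 and 5.99 CPM in T288P, with a value of the other sign (log2 change 0.24, SE 0.16, adjusted p = 0.35 by edgeR). In WT, PFKFB3 stood at 60.8, 42.1, 58.3 and 43.0 CPM and PFKFB4 at 9.58, 8.08, 10.0 and 6.86 CPM. In M452I they stood at 39.3, 46.8, 41.7 and 39.5 CPM and 6.72, 7.70, 7.30 and 7.75 CPM.

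**Figure D2:**
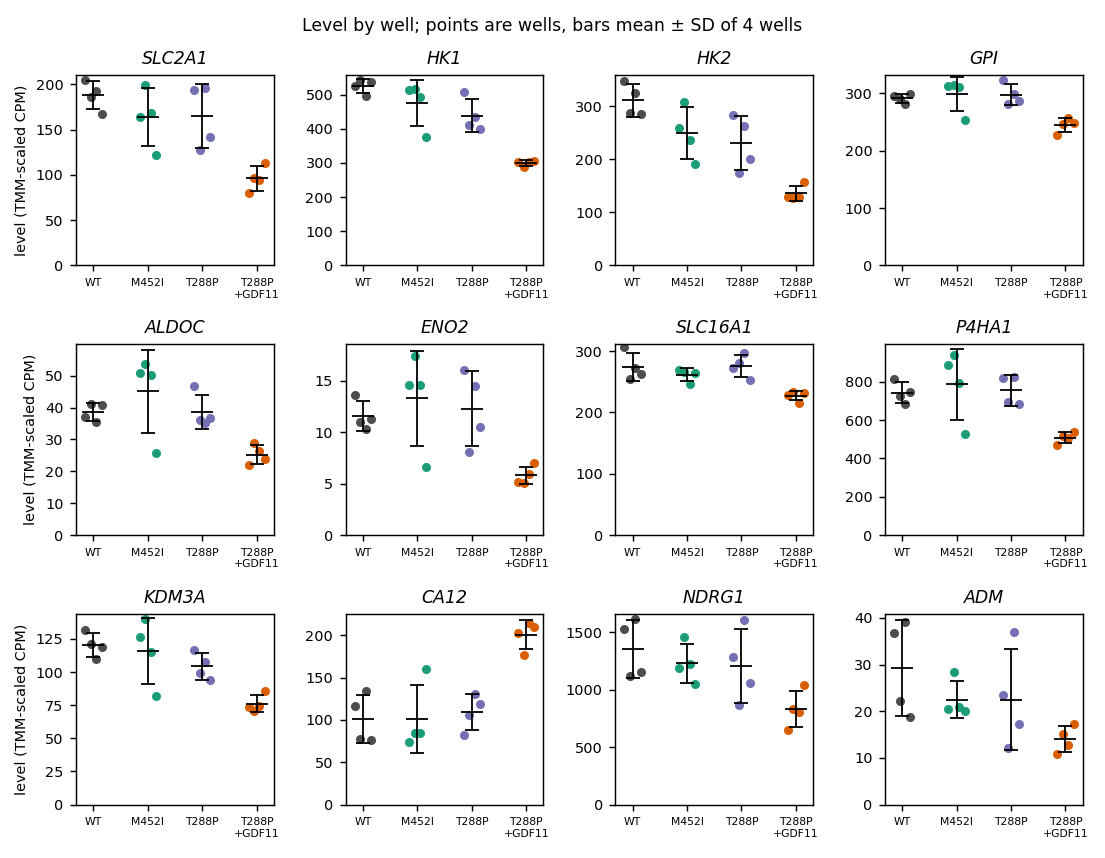
Level (TMM-scaled CPM, y axis from 0) of 12 members in each well of the 4 groups; points are wells and bars the mean ± SD of 4 wells. For the 10 called genes (SLC2A1 to CA12) the T288P+GDF11 wells do not overlap the T288P wells, whereas NDRG1 and ADM overlap; the lone low M452I point for ALDOC, ENO2 and P4HA1, and the lone high one for CA12, is replicate 4.

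The hypoxia genes included 1 that rose, 2 that fell and 11 that did not pass the test. CA12 and CA9 encode membrane carbonic anhydrases that hydrate carbon dioxide at the cell surface. CA12 (ENSG00000074410; chromosome 15, 63321378 to 63382161) measured 202, 176, 215 and 209.6 CPM with GDF11 and 81.9, 106, 131 and 119 CPM in T288P, so that every treated well exceeded every untreated one. It rose 1.84-fold (log2 change 0.88, SE 0.23, adjusted p = 0.0223 by edgeR) and was the only called member that did so. WT stood at 116, 77.9, 135 and 76.8 CPM and M452I at 74.5, 84.7, 84.7 and 160.2 CPM, where replicate 4 again lay toward the treated wells. CA9, the best known hypoxia marker of the family, stayed at 0.235, 0.438, 0.322 and 0.496 CPM with GDF11 and 0.460, 0.0433, 0.452 and 0.210 CPM in T288P. In WT it was 0.487, 0.338, 0.157 and 0.195 CPM and in M452I 0.283, 0.222, 0.197 and 0.694 CPM. The CA9 wells of all 4 groups overlapped (log2 change 0.39, SE 0.64, adjusted p = 0.732 by edgeR with GDF11), and at this level a change in CA9 was not detectable.

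The 3 secreted products overlapped between the groups. VEGFA, the angiogenic growth factor, measured 179, 199, 199.5 and 229 CPM with GDF11 and 222, 177, 277 and 206 CPM in T288P (log2 change -0.13, SE 0.13, adjusted p = 0.552 by edgeR), with 277, 207, 276 and 218 CPM in WT and 192, 236, 193 and 203 CPM in M452I. ADM, the vasodilator peptide adrenomedullin, measured 10.9, 15.2, 12.8 and 17.2 CPM with GDF11 and 23.5, 12.1, 37.1 and 17.3 CPM in T288P. Its estimate was large but so was the spread of the untreated wells, of which replicate 2 lay inside the treated range (log2 change -0.68, SE 0.31, adjusted p = 0.159 by edgeR). ADM was at 36.8, 22.1, 39.1 and 18.7 CPM in WT and 20.4, 28.3, 20.9 and 20.1 CPM in M452I. ANGPTL4, an inhibitor of lipoprotein lipase, ranged over 36.5 to 54.1 CPM with GDF11 and 31.8 to 63.5 CPM in T288P, and its log2 change of 0.01 (edgeR adjusted p = 0.985) was -0.12 to -0.02 without T288P replicate 2 or 4 or T288P+GDF11 replicate 2 or 4.

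Among the enzymes that use oxygen and 2-oxoglutarate, 2 of 4 fell. P4HA1 (ENSG00000122884; chromosome 10, 73007217 to 73096974) measured 469.6, 515, 508 and 538 CPM with GDF11 and 819, 693, 828 and 683 CPM in T288P, without overlap. It fell 1.49-fold (log2 change -0.57, SE 0.14, adjusted p = 0.0109 by edgeR). P4HA1 was at 816, 727, 684 and 748 CPM in WT and 889, 943, 794 and 526 CPM in M452I, the last inside the treated range. P4HA2, the alternative catalytic subunit of the same enzyme, measured 87.9, 84.8, 86.8 and 83.9 CPM with GDF11 and 85.6, 88.7, 81.5 and 86.6 CPM in T288P. These wells overlapped almost fully (log2 change 0.00, SE 0.07, adjusted p = 0.979 by edgeR), with a sign that turned when single wells were left out. P4HA2 was at 71.2, 80.9, 71.7 and 82.5 CPM in WT and 80.5, 80.6, 85.7 and 73.3 CPM in M452I. KDM3A, a histone H3 lysine 9 demethylase (ENSG00000115548; chromosome 2, 86440647 to 86492716), measured 73.9, 70.8, 74.2 and 85.5 CPM with GDF11 and 117, 99.0, 107 and 93.8 CPM in T288P. It fell 1.37-fold, again without overlap (log2 change -0.45, SE 0.13, adjusted p = 0.0247 by edgeR). KDM3A was at 132, 121, 109.7 and 119 CPM in WT and 126, 139.9, 115 and 81.7 CPM in M452I. EGLN3, the hypoxia-induced HIF prolyl hydroxylase PHD3, measured 1.12, 1.53, 1.46 and 1.02 CPM with GDF11 and 0.197, 0.347, 0.835 and 0.270 CPM in T288P. The treated wells were all higher, from few counts, and the test was missed (log2 change 1.65, SE 0.71, adjusted p = 0.134 by edgeR); limma-voom called it, and so did edgeR in a model of only these 2 groups (adjusted p = 0.0206).

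NDRG1 measured 649.9, 830.5, 804 and 1039 CPM with GDF11 and 1286, 862, 1608 and 1057 CPM in T288P. The treated replicate 4 exceeded T288P replicate 2, so the groups overlapped, and NDRG1 missed the threshold (log2 change -0.53, SE 0.18, adjusted p = 0.0585 by edgeR). DESeq2 called NDRG1, and so did edgeR without T288P replicate 2 or without treated replicate 4. It was at 1526, 1119, 1612 and 1148 CPM in WT and 1186, 1460.5, 1218 and 1045 CPM in M452I. The mitophagy receptors BNIP3 and BNIP3L had log2 changes of -0.24 and -0.25 (edgeR adjusted p = 0.299 and 0.203). BNIP3 spanned 74.6 to 91.8 CPM with GDF11 and 82.5 to 119 CPM in T288P, and BNIP3L 73.3 to 102 and 89.9 to 124 CPM, so both overlapped. HILPDA, a lipid droplet protein, and ANKRD37, an ankyrin repeat protein, had -0.38 and -0.74 (edgeR adjusted p = 0.17 and 0.261), both with overlapping wells. HILPDA, which shares 13.4% of its exon bases with another gene on the same strand, spanned 9.77 to 13.0 CPM with GDF11 and 12.4 to 17.1 CPM in T288P, and ANKRD37 1.15 to 2.34 and 1.35 to 4.84 CPM.

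The calls of SLC2A1, HK1, HK2, ENO2 and P4HA1 held in all 16 alternatives run for them, with the highest edgeR adjusted p at 0.0434 (P4HA1 without T288P replicate 1). Those of GPI, ALDOC, SLC16A1, CA12 and KDM3A did not. When T288P replicate 1 was left out, only the first 5 genes were called, with 1028 of all genes against 2174 in the main fit. The same 5 remained when treated replicate 1 or treated replicate 3 was left out, with 1195 of all genes each time. Without M452I replicate 4, 17 members and 3435 of all genes were called. That library is in neither group but enters the filter, the scaling and the shared estimate of the spread.

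For 3 of 8 pairs of related genes, the ratio in the treated wells lay apart from that in the T288P wells. Ratios were also formed for SLC2A1 to SLC2A3 and CA9 to CA12, each with a low-count gene, and both overlapped between these groups. They spanned 7.48 to 10.09 and -9.66 to -8.62 with GDF11, and 7.97 to 10.07 and -10.94 to -7.43 in T288P. How often other gene pairs lie apart was not determined. The log2 ratio of ENO1 to ENO2 counts was 7.46 ± 0.29 (SD, n = 4) with GDF11 and 6.56 ± 0.38 in T288P, and the treated wells (7.09 to 7.75) lay above all T288P wells (6.22 to 7.03). In WT it was 6.57 ± 0.20 and in M452I 6.53 ± 0.52, or 6.28 ± 0.17 over the 3 M452I wells without replicate 4. Without T288P replicate 1 the T288P mean was 6.67 ± 0.38 (n = 3). The ratio of P4HA1 to P4HA2 went the other way, at 2.56 ± 0.11 with GDF11 against 3.14 ± 0.19 in T288P, 3.28 ± 0.16 in WT and 3.27 ± 0.32 in M452I. All 4 treated wells (2.42 to 2.68) were below every well of the other 3 groups. Without the outlying libraries the means were 3.41 ± 0.18 in M452I and 3.10 ± 0.22 in T288P (n = 3 each). PFKFB3 to PFKFB4 was 2.06 ± 0.19 with GDF11, again below every other well, against 2.56 ± 0.06 in T288P, 2.56 ± 0.13 in WT and 2.50 ± 0.11 in M452I. Neither gene of that pair passed the test against T288P on its own. HK1 to HK2 (1.15 ± 0.12 with GDF11 and 0.95 ± 0.22 in T288P), ALDOA to ALDOC (4.82 ± 0.14 and 4.58 ± 0.13), LDHA to LDHB (1.15 ± 0.14 and 1.03 ± 0.23) and SLC16A1 to SLC16A3 (0.65 ± 0.20 and 0.59 ± 0.21) overlapped between these groups. BNIP3 to BNIP3L had group means of -0.07 to -0.02 and overlapped as well. The ratios are descriptions without a test.

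**Figure D3:**
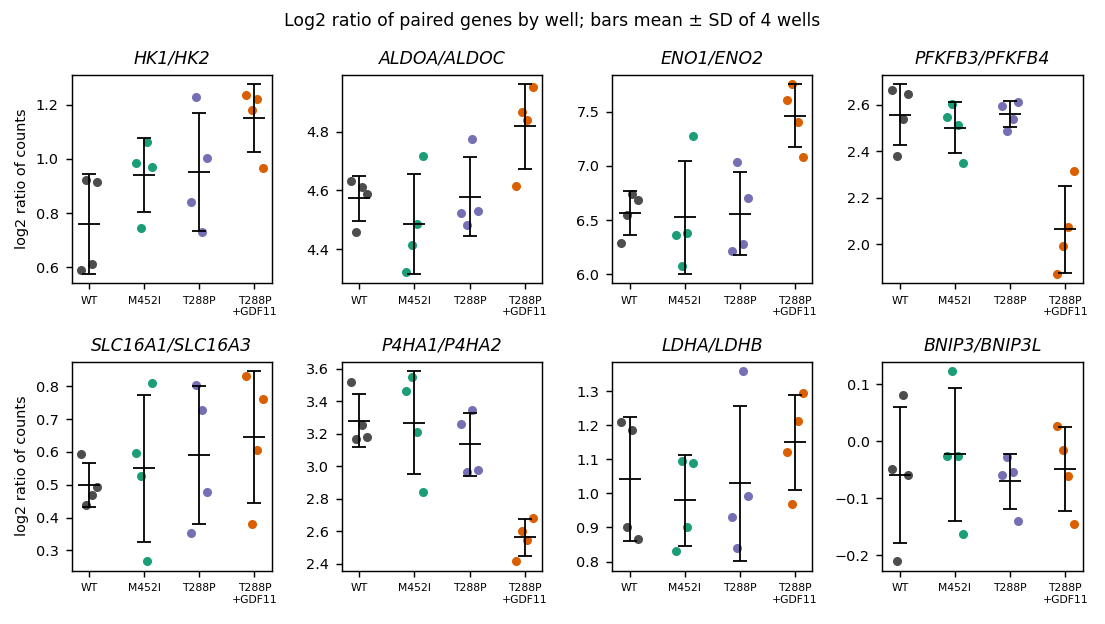
Log2 ratio of counts (y axis, not starting at 0) of 8 pairs of related members in each well of the 4 groups; points are wells and bars the mean ± SD of 4 wells. T288P+GDF11 wells separate from the T288P wells for ENO1/ENO2 (higher) and for P4HA1/P4HA2 and PFKFB3/PFKFB4 (lower), and overlap them for the other 5 pairs.

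The series names M452I a recessive hypomorph, and its comparison with WT gives the levels under that allele. None of the 38 members was called by edgeR, DESeq2 or limma-voom, where edgeR called 0.0238% of all genes, and no member had wells that did not overlap (4.09% of all genes). Of the members 2 had an unadjusted p under 0.05, beside 6.3% of all genes. HK2 measured 249 ± 48.9 CPM in M452I and 311 ± 30.8 in WT (SD, n = 4 each; log2 change -0.32, SE 0.15, adjusted p = 0.78 by edgeR), and PFKFB3 41.8 ± 3.46 and 51.0 ± 9.87 (log2 change -0.29, SE 0.14, adjusted p = 0.785 by edgeR). The median log2 fold change was 0.00813 over the members and 0.0305 over all genes. Without both outlying libraries, a choice made after seeing the data, 4 members were called, all higher in M452I, beside 3.72% of all genes. GAPDH then stood at 4699 ± 173 CPM against 3788 ± 355 (log2 change 0.31, SE 0.07, adjusted p = 0.0226 by edgeR) and ALDOC at 51.6 ± 1.83 CPM against 38.6 ± 2.78 (log2 change 0.42, SE 0.09, adjusted p = 0.0205 by edgeR). LDHB (log2 change 0.27, SE 0.07, adjusted p = 0.0378 by edgeR) and PGAM1 (log2 change 0.24, SE 0.06, adjusted p = 0.0438 by edgeR) were the others. Leaving out either of the 2 libraries alone gave 0 calls, here and in the other comparisons between alleles.

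T288P, compared with WT, likewise had 0 called members by edgeR, DESeq2 and limma-voom, beside 0.0417% of all genes by edgeR, and 3 with an unadjusted p under 0.05, beside 8.49%. HK2 was the only member whose wells did not overlap (5.04% of all genes), by less than 1 CPM between T288P replicate 1 and WT replicate 4. It measured 230.3 ± 51.3 CPM in T288P against 311 ± 30.8 in WT (SD, n = 4 each; log2 change -0.43, SE 0.15, adjusted p = 0.474 by edgeR). HK1 (log2 change -0.26, SE 0.10, adjusted p = 0.495 by edgeR) and P4HA2 (log2 change 0.16, SE 0.07, adjusted p = 0.567 by edgeR) overlapped. The median was -0.0216 over the members and 0.0175 over all genes. Without both outlying libraries HK1 (log2 change -0.34, SE 0.06, adjusted p = 0.00468 by edgeR) and HK2 (log2 change -0.55, SE 0.13, adjusted p = 0.0271 by edgeR) were called lower in T288P, beside 4.06% of all genes. M452I against T288P had 0 called members by the 3 tools and 0 with an unadjusted p under 0.05, beside 0.00596% called and 2.18% under 0.05 among all genes, and 0 members lay apart, beside 1.2%. Without both outlying libraries this comparison called 8 members, all higher in M452I, beside 14.1% of all genes: HK1, ALDOC, TPI1, GAPDH, PGAM1, LDHB, BNIP3 and KDM3A. Those with the lowest p were GAPDH (log2 change 0.44, SE 0.08, adjusted p = 0.00171 by edgeR) and ALDOC (log2 change 0.52, SE 0.10, adjusted p = 0.00234 by edgeR). Ribosomal protein genes held 12.7% to 13.0% of counts in the 3 M452I wells kept and 10.7% to 11.1% in the 3 T288P wells kept; the part of that difference in the result was not tested.

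The treated T288P wells were also compared with the other alleles. These comparisons share the treated wells with the one above, so their calls are not independent of it. The groups compared differ in both the allele and GDF11. No WT or M452I well received GDF11, so the parts of allele, line and ligand cannot be told apart here. Against WT edgeR called 16 members (15 lower, 1 higher), beside 28.9% of all genes (15.1% lower, 13.8% higher), and 25 had wells that did not overlap, beside 35.1%. The median log2 fold change was -0.261 over the members and 0.0169 over all genes. Against M452I edgeR called 15 (14 lower, 1 higher), beside 21.2% (12.9% lower, 8.27% higher), and 11 did not overlap, beside 18.8%, with a median of -0.289 over the members and -0.0102 over all genes. HK2 was 2.29-fold lower than in WT (log2 change -1.20, SE 0.15, adjusted p = 3.12e-05 by edgeR) and 1.83-fold lower than in M452I (log2 change -0.87, SE 0.15, adjusted p = 0.00101 by edgeR). HK1 was 1.75-fold lower than in WT (log2 change -0.81, SE 0.10, adjusted p = 2.93e-05 by edgeR) and 1.58-fold lower than in M452I (log2 change -0.66, SE 0.10, adjusted p = 0.000414 by edgeR). For SLC2A1 the values were -0.97 against WT and -0.77 against M452I on the log2 scale (edgeR adjusted p = 0.000201 and 0.00251). For KDM3A they were -0.66 and -0.60 (edgeR adjusted p = 0.000927 and 0.00344), and for CA12 0.99 and 0.99 (edgeR adjusted p = 0.00522 and 0.00865). ENO2, P4HA1, ALDOC and GPI were also called in both. PFKFB3 was called against WT (log2 change -0.54, SE 0.14, adjusted p = 0.00668 by edgeR) but not against M452I (log2 change -0.25, SE 0.14, adjusted p = 0.195 by edgeR), and so were ADM (log2 change -1.06, SE 0.31, adjusted p = 0.0172 by edgeR), SLC16A1, SLC16A3 and HILPDA. TPI1, ALDOA, PGK1 and PGAM1 were called against M452I and not against WT. NDRG1 and PFKM were called in both. A call against WT and not against M452I does not show that these differ, and M452I against WT called 0 members. The count against M452I was 8 without M452I replicate 1, 2 or 3, 9 without T288P+GDF11 replicate 1 or 3, and 24 without M452I replicate 4. Without both outlying libraries it was 25, where 40.3% of all genes were called. The count against WT was 25 in a model of only those groups. That model called 5953 of all genes, against 4846 in the main fit.

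**Figure D4:**
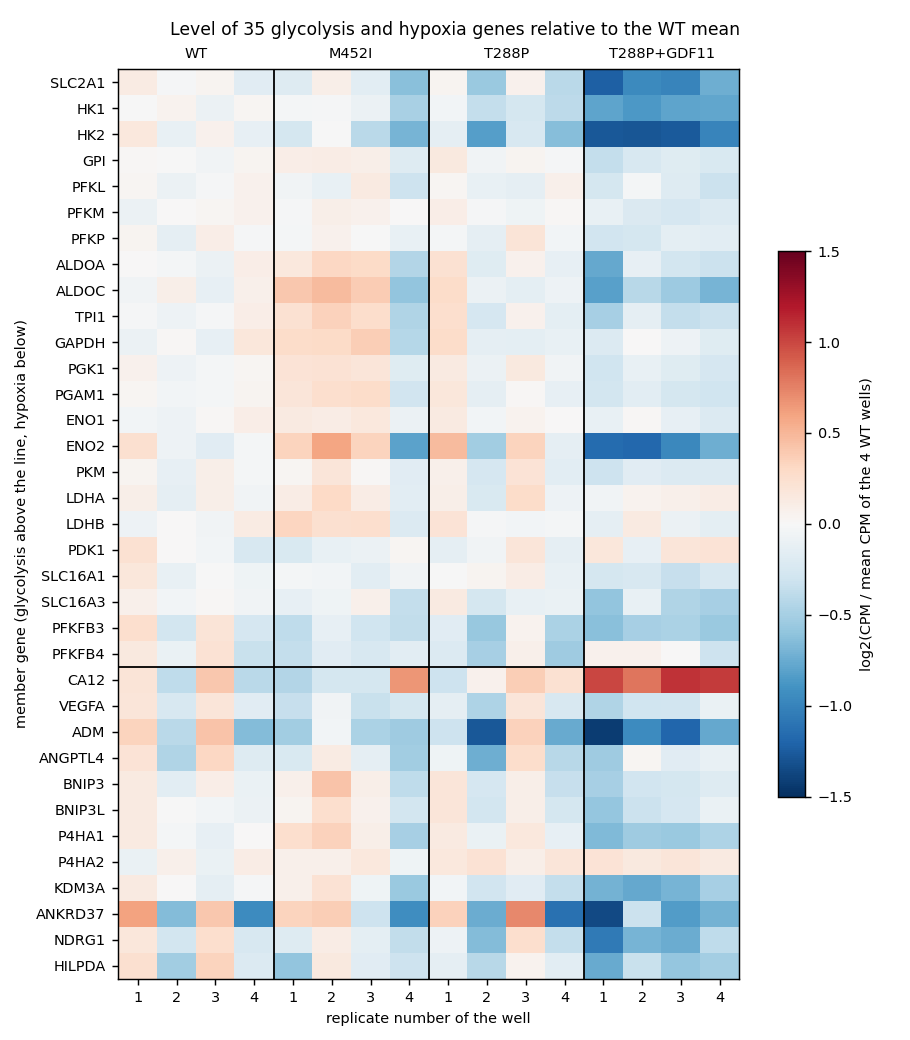
Level of the 35 members averaging at least 1 CPM in each of the 16 wells as log2 of CPM over the mean CPM of the 4 WT wells (colour scale, blue lower and red higher); rows are genes, glycolysis above the black line, and columns are wells by replicate number. The T288P+GDF11 columns are blue for SLC2A1, HK1, HK2 and ENO2 and red for CA12, and for ALDOC, ENO2 and GAPDH M452I replicate 4 is blue where the other 3 M452I wells are red.

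The outlying library M452I replicate 4 lay toward the treated wells in these genes. For 9 of the 10 members called with GDF11 it was the most treated-like of the 4 M452I wells, all but SLC16A1, and for 5 (GPI, ALDOC, ENO2, P4HA1 and KDM3A) it fell inside the range of the treated wells. Over all 2174 genes called in that comparison it was the most treated-like M452I well for 71.8% and inside the treated range for 18.7%. T288P replicate 1 was the least treated-like T288P well for 7 of the 10 and for 60.8% of all called genes, but that well entered the comparison that made the calls. With both libraries left out, all 10 members remained called, and PGK1 joined them (log2 change -0.21, SE 0.07, adjusted p = 0.0458 by edgeR), beside 13.7% of all genes.

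The median spread between wells of 1 group was higher for the hypoxia genes than for the glycolysis genes in each group. Over members of at least 10 CPM, the median coefficient of variation of the hypoxia genes was 15.3% (WT), 18.2% (M452I), 17.6% (T288P) and 10.1% (T288P+GDF11), against 6.33%, 12.8%, 11.4% and 6.50% for the glycolysis genes and 8.20%, 13.2%, 11.1% and 8.76% for all tested genes at that level. Without M452I replicate 4 the M452I medians were 11.7% (hypoxia), 4.55% (glycolysis) and 6.27% (all genes), and without T288P replicate 1 the T288P medians were 16.01% (hypoxia), 8.36% (glycolysis) and 8.00% (all genes). Of the 14 hypoxia genes, 10 were highest in replicate 2 of M452I, all but CA9, CA12, EGLN3 and P4HA2. In T288P 9 were highest in replicate 3, while CA9, BNIP3, BNIP3L and KDM3A were highest in replicate 1 and P4HA2 in replicate 2. In WT 8 were highest in replicate 1 and 5 in replicate 3, and with GDF11 8 were highest in replicate 4 and 4 in replicate 2. Of the 24 glycolysis genes, 14 were likewise highest in replicate 2 of M452I. In T288P 13 of these were highest in replicate 1 and 10 in replicate 3, and with GDF11 13 in replicate 2. In WT 9 were highest in replicate 4 and 8 in replicate 1. The share of all tested genes highest in each well was not determined. The highest T288P well exceeded the lowest 3.06-fold for ADM, 1.57-fold for VEGFA and 1.86-fold for NDRG1. T288P replicate 3 had the fewest counts of all libraries (28.5 M), and the 14 hypoxia genes held 0.342% of its counts where its 3 companions had 0.233% to 0.268%; the part of depth in this pattern was not tested.

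**Figure D5:**
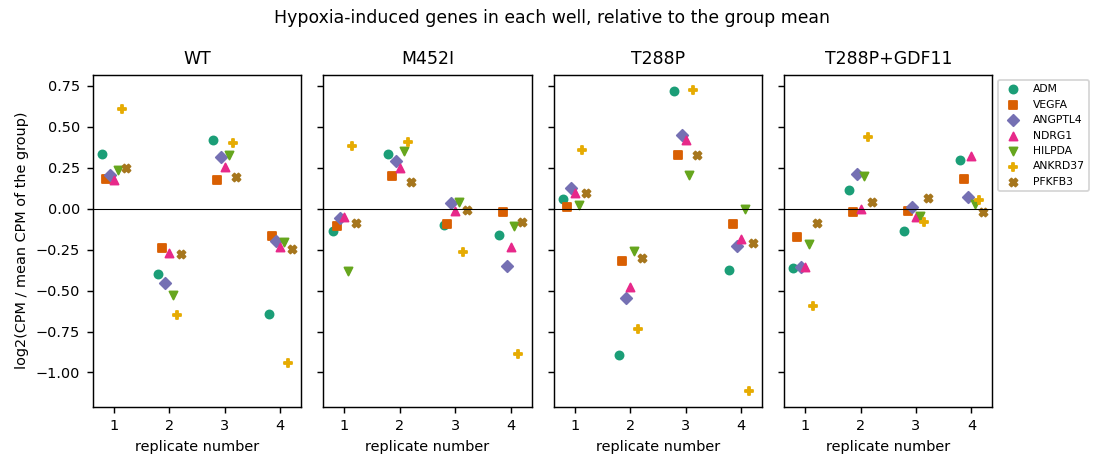
Level of 7 hypoxia-induced members in each well as log2 of CPM over the mean of the 4 wells of its group (y axis), by replicate number (x axis), 1 panel per group. These 7 genes, a selection made with their values known, are highest in M452I replicate 2 and in T288P replicate 3. PFKFB3 among them is counted with the glycolysis genes elsewhere in the text. Of all 14 hypoxia genes, 10 and 9 are highest in those wells.

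The other genes of these pathways came from lists chosen by function, also with earlier results of these data known. Of the HIF pathway regulators, 12 of 13 were tested with GDF11 against T288P, and 3 fell and none rose, where 12.9% of all genes were called (7.88% lower, 5.07% higher). The median log2 fold change was -0.27, against -0.0148 over all genes, and without both outlying libraries 2 fell. ARNT, the partner of the alpha subunits, fell from 65.8 ± 4.37 to 49.7 ± 6.57 CPM (SD, n = 4 each; log2 change -0.40, SE 0.11, adjusted p = 0.022 by edgeR). The ubiquitin ligase SIAH2 fell from 46.5 ± 6.84 to 35.4 ± 4.02 CPM (log2 change -0.39, SE 0.11, adjusted p = 0.029 by edgeR) and the coactivator EP300 from 51.1 ± 3.55 to 36.3 ± 8.82 CPM (log2 change -0.50, SE 0.15, adjusted p = 0.0349 by edgeR). The alpha subunits overlapped between these groups, HIF1A from 367 ± 43.4 to 328 ± 23.7 CPM (log2 change -0.16, SE 0.09, adjusted p = 0.259 by edgeR) and EPAS1 from 461 ± 34.7 to 405 ± 27.9 CPM (log2 change -0.18, SE 0.11, adjusted p = 0.265 by edgeR). HIF1A was called lower against WT (log2 change -0.36, SE 0.09, adjusted p = 0.00702 by edgeR) and against M452I (log2 change -0.30, SE 0.09, adjusted p = 0.0296 by edgeR). HIF protein, whose level is set mainly by degradation, was not measured.

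Of 35 further HIF targets 34 were tested, and 7 fell and 3 rose (median -0.121), beside 7.88% lower and 5.07% higher over all genes. Without both outlying libraries 6 fell and 2 rose. PFKFB2, another fructose 2,6-bisphosphate enzyme, fell from 174 ± 32.8 to 73.4 ± 6.16 CPM (log2 change -1.24, SE 0.18, adjusted p = 0.000433 by edgeR), a larger fall than that of any member. ANKZF1 (log2 change -0.41, SE 0.09, adjusted p = 0.00745 by edgeR), the transcriptional repressor BHLHE40 (log2 change -0.36, SE 0.09, adjusted p = 0.0111 by edgeR) and the creatine transporter SLC6A8 (log2 change -0.61, SE 0.16, adjusted p = 0.0161 by edgeR) fell as well. These 4 genes are named for their low p-values, and the 3 that rose are not among them. Over the 34 tested targets the log2 changes ran from -1.24 to 1.93. Among 28 tested of 38 further glycolysis and pyruvate genes, 3 fell and 1 rose (median -0.0369), a share near the 12.9% called over all genes, and without both outlying libraries 4 fell and 2 rose. PDP1, the phosphatase that activates pyruvate dehydrogenase, fell from 51.0 ± 6.22 to 35.5 ± 0.406 CPM (log2 change -0.52, SE 0.10, adjusted p = 0.00325 by edgeR), as did PGM2 (log2 change -0.41, SE 0.11, adjusted p = 0.0198 by edgeR) and BSG, the chaperone of the lactate transporters (log2 change -0.34, SE 0.11, adjusted p = 0.0417 by edgeR), while the inositol polyphosphate phosphatase MINPP1 rose from 16.2 ± 2.89 to 25.5 ± 1.27 CPM (log2 change 0.66, SE 0.15, adjusted p = 0.0078 by edgeR). All 7 pentose phosphate genes were tested, and 3 fell and 1 rose (median -0.346), beside 7.88% lower and 5.07% higher over all genes, with the same counts without both outlying libraries. Transketolase, TKT, fell from 875 ± 136 to 611 ± 37.4 CPM (log2 change -0.52, SE 0.15, adjusted p = 0.0254 by edgeR) and PGD from 199.6 ± 13.6 to 156 ± 7.44 CPM (log2 change -0.36, SE 0.10, adjusted p = 0.0278 by edgeR), and RPE rose from 36.6 ± 3.57 to 45.2 ± 1.40 CPM (log2 change 0.30, SE 0.09, adjusted p = 0.0394 by edgeR). In M452I against WT, T288P against WT and M452I against T288P, edgeR called none of the genes on these 4 lists with all libraries. Without both outlying libraries it called 2 HIF targets and 2 glycolysis and pyruvate genes in M452I against WT (3.72% of all genes), and 1 and 3 in T288P against WT (4.06%). In M452I against T288P (14.1%) it then called 1 regulator, 5 HIF targets, 2 glycolysis and pyruvate genes and 2 pentose phosphate genes.

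Epithelial markers checked the cell line and were all expressed. Their summed level (8 genes) was 5105 to 5518 CPM in T288P+GDF11 wells and 5862 to 7116 CPM in T288P wells, and CDH1 (log2 change -0.55, SE 0.08, adjusted p = 0.000498 by edgeR), KRT5 (log2 change -0.44, SE 0.09, adjusted p = 0.00317 by edgeR) and KRT18 (log2 change -0.52, SE 0.16, adjusted p = 0.0435 by edgeR) were called lower with GDF11. The endothelial markers (6 genes, 2 tested) summed to 2.17 to 3.53 CPM with GDF11 and 0.498 to 0.928 CPM in T288P. PECAM1 and KDR were called higher, beside 5.07% of all genes. KDR stood at 0.635 to 1.02 CPM with GDF11 and at 0.244 CPM or less in every other well. It thus passed the filter on low counts only through the treated wells, and its call carries no weight as support. CDH5 was at 0 in 15 of the 16 wells and VWF below 0.2 CPM in all. Fibroblast markers (7 genes) summed to at most 8.43 CPM, leukocyte markers (6) to at most 2.35 CPM and adipocyte markers (4) to at most 1.40 CPM in any well. The share of ribosomal protein counts was 10.7% to 12.5% with GDF11 and 10.7% to 12.3% in T288P. The part of these markers in the results on glycolysis and hypoxia genes was not tested.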

How the data were processed

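RNA from 16 wells (4 groups of 4) was measured as poly(A)-selected RNA-seq. The deposited table holds raw read counts per gene as the authors made them; HISAT2 and StringTie 2.2.1 with GRCh38 are named in the submitters' processing notes, while how reads were counted, with which annotation and strand rule, was not given in the sources used here. A count of 2 was about as frequent as a count of 1, so mates may have been counted separately. All columns were matched to samples by the names in the table.

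The 38 members and the other gene lists were chosen with earlier results of these data known. Genes were filtered with filterByExpr (minimum count 10), scaled by TMM and tested over all 16790 genes with edgeR 4.0.16 (quasi-likelihood, R 4.3.3) in 1 model of the 4 groups, with Benjamini-Hochberg adjustment and a threshold of 0.05. SEs were obtained as the absolute log2 change over the root of its F statistic. Fold changes are fitted values, and CPM values are TMM-scaled. Isozyme ratios are log2 of counts with 0.5 added. DESeq2 1.42.0, limma 3.58.1 (voom), RLE scaling, other filters, 2-group models, a replicate block and leaving out each library were alternatives. Libraries held 28.5 to 50.8 M counts; members under 1 CPM rest on few counts.

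Values by well are given for called members with the lowest adjusted p-values, for SLC2A1, HK2, ALDOA, PGK1, LDHA, CA9, VEGFA, ADM and NDRG1 and for isozyme pairs with a called member; the other members are given by range. Of the other lists, up to 4 called genes with the lowest p-values are named, plus HIF1A, EPAS1 and called markers; 1 gene that this rule selects is not reported here. Replicate numbers gave no sign of pairing the wells: of 24 same-number pairs across groups 4 had deviations correlated above 0.1 (range -0.302 to 0.302). This does not exclude an origin shared by wells of the same number. Replicate libraries differed beyond counting noise (chi-square per degree of freedom at least 7.85), so none was treated as a duplicate.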

Additional observations from a re-analysis of the deposited data

Results flagged for a closer look

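Within each group of 4 wells, every member was checked for a well whose gap to its nearest neighbour took up more than 0.829 of the range. Of 152 such groups 12 had a well of that kind, where chance gives about 1 in 20. M452I replicate 4 accounted for 5 of the 12 and T288P replicate 1 for 3.

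In M452I replicate 4, GPI was at 254 CPM (the other wells at 310 CPM or above), ALDOC at 25.7 CPM (50.2 or above), GAPDH at 2810 CPM (4570 or above), PGK1 at 368 CPM (474 or above) and CA12 at 160 CPM (84.7 or below). GPI, ALDOC, GAPDH and PGK1 were low in that well and CA12 was high. In T288P replicate 1, ALDOC was at 46.7 CPM (the other wells at 36.6 or below), GAPDH at 4570 CPM (3500 or below) and LDHB at 933 CPM (800 or below), all of them high.

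With GDF11, HK2 was at 157 CPM in replicate 4 (the other wells at 130 or below), PFKFB4 at 6.94 CPM in the same well (8.71 or above) and PDK1 at 26.9 CPM in replicate 2 (33.0 or above). ADM was at 28.3 CPM in M452I replicate 2 (20.9 or below).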

How the results depend on the processing

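In the 3 comparisons between alleles the count of called members was 0 under DESeq2, voom, RLE scaling, either filter, 2-group models, the replicate block and each single library left out. Leaving out both outlying libraries, chosen after seeing the data, gave 4 (M452I against WT), 2 (T288P against WT) and 8 (M452I against T288P). Of all genes 3.72%, 4.06% and 14.1% were then called. For GDF11-treated against untreated T288P the count was 13 with DESeq2, 12 with voom and 6 with no filter on low counts. Of all genes 3025, 2393 and 1391 were then called, against 2174 in the main fit. With a single library left out the count was 5 to 17. It was 5 without T288P replicate 1 (1028 of all genes) and 17 without M452I replicate 4 (3435 of all genes). Against WT it was 25 in a model of only those groups (5953 of all genes, 4846 in the main fit). With a library left out it was 11 to 23. It was 11 without WT replicate 1 (3759 of all genes) and 23 without M452I replicate 4 (5864 of all genes). Against M452I it was 8 with no filter (2400 of all genes, 3558 in the main fit) and 8 to 24 with a library left out. Without both outlying libraries it was 25 (40.3% of all genes). With the replicate number as a block, although the numbers gave no sign of pairing the wells, the counts were 9, 15 and 13 where they were 10, 16 and 15 without it. The sign of 4 members near 0 turned in treated against untreated T288P: GAPDH ranged from -0.13 to 0.0321 with a library left out and was 0.0184 without both outlying libraries, LDHA ranged from -0.0321 to 0.12, ANGPTL4 from -0.12 to 0.20 and P4HA2 from -0.0189 to 0.0417. GPI lost its call in 9 alternatives, SLC16A1 in 6, ALDOC and KDM3A in 5 each and CA12 in 4. The cause was not tested. Depth limits SLC2A3, CA9 and EGLN3.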
